A study of Homo sapiens with 7 samples.

Results

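The 30 genes described here encode the enzymes that build cholesterol and fatty acids and the proteins that switch this synthesis on and off. They were chosen by symbol, as 30 named members of these pathways among the 21305 genes of the table, and each was found once. In order of their roles they form 7 genes of the mevalonate steps, 11 genes from squalene to cholesterol, 5 regulators and transport genes and 7 fatty acid genes. The first 18 of these are called the sterol enzymes below. All 30 had a mean above the minimum of 10 normalized counts that was set for testing, so none was lost to the filter on low values, and 15420 genes were tested in all.

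The libraries came from 501Mel, a human melanoma cell line of the melanocytic kind. All 7 were dox-induced, that is, doxycycline was given to switch on a short hairpin RNA carried by the cells. In the control (shlacZ, 3 libraries) the hairpin matched lacZ, a gene of bacteria, and the hairpins sh4 (2 libraries) and sh8 (2 libraries) were aimed at the long non-coding RNA GRASLND. The hairpins were delivered by lentivirus and the cells selected with puromycin, so each group is 1 selected cell population, and hairpin and population cannot be told apart. Nothing in the labels says that the libraries of a group came from separate cultures, and the p-values measure only the spread between these libraries, which may be technical.

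Cells make cholesterol from acetyl-CoA through mevalonate, isoprenoids and squalene, and they make fatty acids from the same acetyl-CoA through malonyl-CoA. Both routes are controlled by the SREBP transcription factors, which are made as membrane proteins, held in the endoplasmic reticulum by INSIG when sterols are plentiful, and carried by SCAP to the Golgi for cleavage when sterols run low. SREBP2, the product of SREBF2, acts mainly on the sterol genes and the SREBP1c form of SREBF1 mainly on the fatty acid genes. SREBP sites usually work together with nearby CCAAT boxes, bound by NF-Y, and GC boxes, bound by Sp1.

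Promoter stretches of 4 genes and a short site of another are shown because their genes stand for the main patterns below. SCD was lower in all 4 knockdown libraries than in all controls, MVD and DHCR7 fell under sh4, PMVK rose under sh4, and SREBF2 carries the classical sterol regulatory element. The letters are RefSeq promoter sequence of GRCh38.p14, printed 5′ to 3′ on the strand of the gene and the 4 stretches are limited to bases that lie in no annotated exon. Capitals mark CCAAT or GGGCGG on either strand (ATTGG and CCGCCC are the same motifs read on the other strand), and in SREBF2 the element itself.
SCD, chr10:100346983-100347232, plus strand: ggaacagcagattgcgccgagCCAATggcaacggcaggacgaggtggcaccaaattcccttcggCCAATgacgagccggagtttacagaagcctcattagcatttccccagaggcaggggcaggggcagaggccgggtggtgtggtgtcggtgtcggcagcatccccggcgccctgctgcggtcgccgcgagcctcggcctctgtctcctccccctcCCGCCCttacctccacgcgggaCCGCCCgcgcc
MVD, chr16:88663162-88663297, minus strand: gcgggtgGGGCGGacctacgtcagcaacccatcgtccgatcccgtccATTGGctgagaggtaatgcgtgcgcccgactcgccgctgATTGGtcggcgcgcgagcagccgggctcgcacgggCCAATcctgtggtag
DHCR7, chr11:71448436-71448561, minus strand: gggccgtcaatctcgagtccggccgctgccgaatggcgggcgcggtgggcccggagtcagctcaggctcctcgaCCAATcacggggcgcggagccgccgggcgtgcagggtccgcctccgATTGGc
PMVK, chr1:154936720-154936969, minus strand: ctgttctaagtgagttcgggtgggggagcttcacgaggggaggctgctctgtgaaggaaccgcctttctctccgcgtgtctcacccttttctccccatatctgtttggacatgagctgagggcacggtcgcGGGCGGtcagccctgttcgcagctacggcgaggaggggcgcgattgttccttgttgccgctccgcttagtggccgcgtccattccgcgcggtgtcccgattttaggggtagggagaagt
SREBF2, chr22:41832962-41832990, plus strand: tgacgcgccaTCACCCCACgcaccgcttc

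The table of promoters (250 bases before to 50 after a start) had an entry for 26 of the 30 genes. ACAT2, FASN, SQLE and FDFT1 were the others. Searched on both strands, CCAAT was found for 20 of the 26 (76.9%), against 39.7% of the 27305 genes with an entry. GGGCGG was found for 25 of the 26 (96.2%), with NSDHL the exception, against 48.3% of all. CACGTG, a palindrome known as an E-box, was found for LSS, SC5D, INSIG1 and SCAP (15.4%, against 8.77% of all). TCACCCCAC, the form of the sterol regulatory element searched, was found only for SREBF2 (0.535% of all), and TCACCCCAT, which differs from it in the last letter, for 0 of the 26 (0.278% of all). The 27305 genes were not limited to those tested here, so the shares of all come from an unlike set. These matches describe the letters of the windows and nothing about binding.

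The target of the hairpins was checked first. GRASLND (chr2:6911754-6918734, minus strand) stood at 309, 330 and 290 normalized counts in the shlacZ libraries, at 175 and 131 under sh4 and at 227 and 163 under sh8. All 4 knockdown libraries lay below all 3 controls, an exact two-sided permutation test over the libraries gave p = 0.0286, the smallest that the 35 splits allow, and the log2 fold change was -0.85 (SE 0.19, adjusted p = 0.0402, limma). By hairpin, the log2 fold change of GRASLND was -1.02 under sh4 (SE 0.21, adjusted p = 0.00662, limma). Under sh8 it was -0.68 (SE 0.21, adjusted p = 0.11, limma), so with sh8 alone the fall was not called. Depth ranged from 13337317 to 22855232 reads. The first shlacZ library stood apart from the other two: the mean chi-square per gene between libraries was 31.4 and 30.9 for its pairs and 9.32 between shlacZ 2 and 3, with 21.6 within sh4 and 17.8 within sh8. The counts of members that passed, and the sterol medians of the pooled comparison and of sh8, are therefore given with and without it. The 7 melanocytic markers were all in the table, and their summed level went from 135575 to 146343 normalized counts in the controls to 51868 to 59737 under sh4 and 101544 to 104484 under sh8. None of the 3 keratinocyte, 4 leukocyte and 3 endothelial markers was among the genes of the table, and 1 of 4 fibroblast markers was, at 5.24 to 16.4.

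In the controls the most abundant of the 30 genes per kilobase of exon was SCD, at 3298 normalized counts per kilobase. FASN (1002), ACLY (859), FDFT1 (461) and SREBF2 (428) followed. The lowest were TM7SF2 (22.6), MVK (15.6) and FADS2 (13.4). SCD and FADS2, both desaturases, mark the ends of the range per kilobase. This order depends on the annotated exon length, 3408 bases for TM7SF2, 9018 for MVK and 10553 for FADS2. Undivided control means were 76.9, 140 and 141 normalized counts for these genes. The plot of all 30 genes by library shows that ACACA, FASN, SCD and ELOVL6 were lower in all 4 knockdown libraries, whereas most sterol enzymes were low in the first shlacZ and the first sh4 library.

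**Figure D1:**
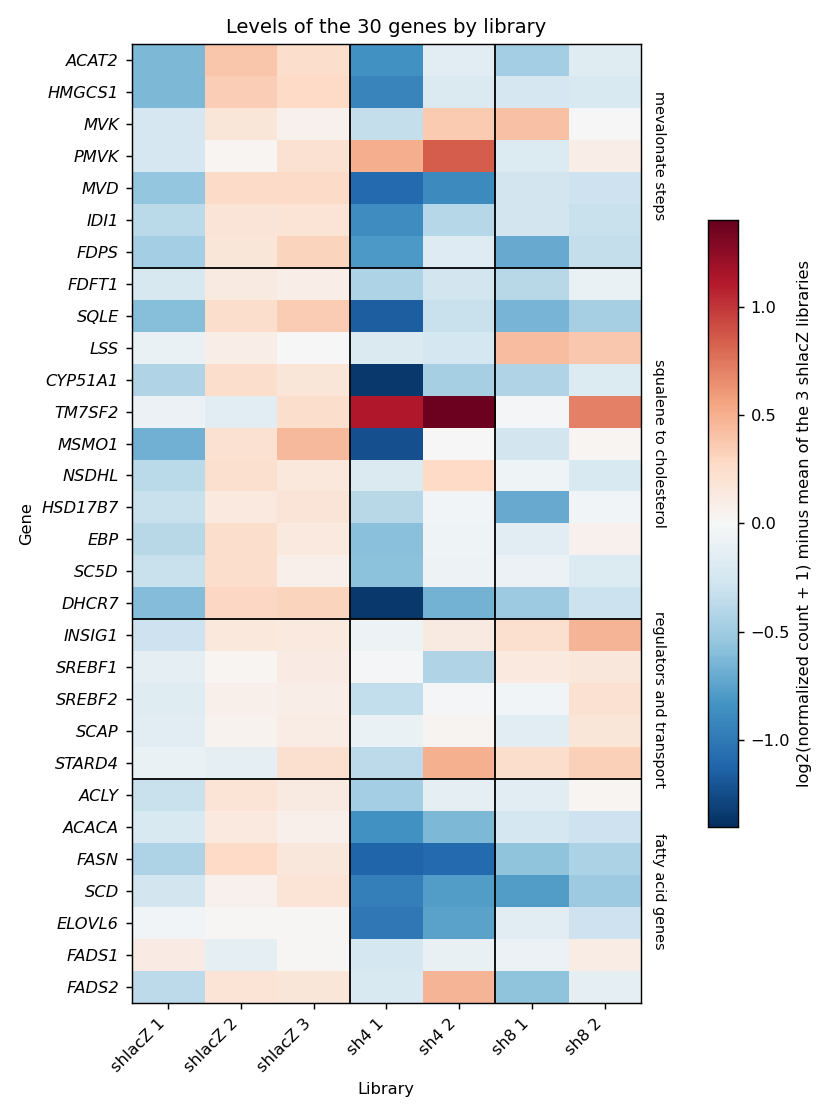
Level of the 30 genes in each of the 7 libraries, as log2(normalized count + 1) minus the mean of the 3 shlacZ libraries (colour scale), with genes in rows by role and libraries in columns. FASN, SCD, ACACA and ELOVL6 are blue in all 4 knockdown libraries, and most sterol enzymes are blue in shlacZ 1 and sh4 1, with PMVK and TM7SF2 red in sh4 1.

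In the fatty acid arm, 4 of the 7 genes fell under sh4 and 0 rose, where 11.9% of all tested genes fell and 10.5% rose. With both hairpins pooled against shlacZ, 1 of the 30 genes passed an adjusted p under 0.05, namely SCD, which was lower (2.06% of all tested genes were called lower and 2.55% higher). The members ACACA, FASN, SCD and ELOVL6, lay below all controls in all 4 knockdown libraries (11% of all genes did), and these 4 belong to the fatty acid genes. The median log2 fold change of the 7 fatty acid genes was -0.50 in the pooled comparison, -0.74 under sh4 and -0.27 under sh8, beside -0.01 over all genes in each. Less transcript per cell and fewer cells with the transcript cannot be told apart in these bulk libraries.

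SCD (chr10:100347233-100364826, plus strand), the desaturase that puts the double bond into stearate and palmitate, had 14368, 17926 and 19594 normalized counts in the shlacZ libraries, 8848 and 9999 under sh4, and 9993 and 12083 under sh8. The knockdown libraries were all lower than the lowest control. The log2 fold change was -0.75 pooled (SE 0.15, adjusted p = 0.0279), -0.87 under sh4 (SE 0.16, adjusted p = 0.00391) and -0.64 under sh8 (SE 0.16, adjusted p = 0.0592), so that under sh8 the adjusted p missed the threshold. The pooled call was lost in 7 of 18 alternatives, with an adjusted p of up to 0.141: with the replicate block (0.131), with no variance trend (0.0781), without shlacZ 2, shlacZ 3, sh4 1 or sh4 2, and without shlacZ 1 and sh4 1 together. The 2 hairpin comparisons share the 3 control libraries and are not independent.

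FASN (chr17:82078338-82098294, minus strand), the synthase that builds palmitate from malonyl-CoA, had 6788, 11059.7 and 10168 in the controls. It had 4210.2 and 4313 under sh4, and 6196 and 6736 under sh8. The sh4 mean was 54.4% below the control mean, and the log2 fold change was -1.10 (SE 0.19, adjusted p = 0.00293). Under sh8 it was -0.50 (SE 0.19, adjusted p = 0.189), with both libraries below the first control library, the lowest of the 3.

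ACACA (chr17:37084992-37406836, minus strand), the acetyl-CoA carboxylase that makes malonyl-CoA, had 2668, 3398 and 3236 in the controls, 1708 and 2001 under sh4, and 2606 and 2524 under sh8. The groups did not overlap, and under sh4 the log2 level fell by 0.74 (SE 0.14, adjusted p = 0.00436). Under sh8 the log2 fold change was -0.27 (SE 0.14, adjusted p = 0.334). ELOVL6 (chr4:110045846-110199199, minus strand), the elongase that lengthens palmitate, had the smallest control SD relative to its mean of the 30 genes, at 1031, 1070.5 and 1073. It stood at 529.7 and 627 under sh4 and at 948 and 864 under sh8. Its log2 level under sh4 fell by 0.88 (SE 0.13, adjusted p = 0.00143), and its sh8 value was -0.23 (SE 0.13, adjusted p = 0.39).

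**Figure D2:**
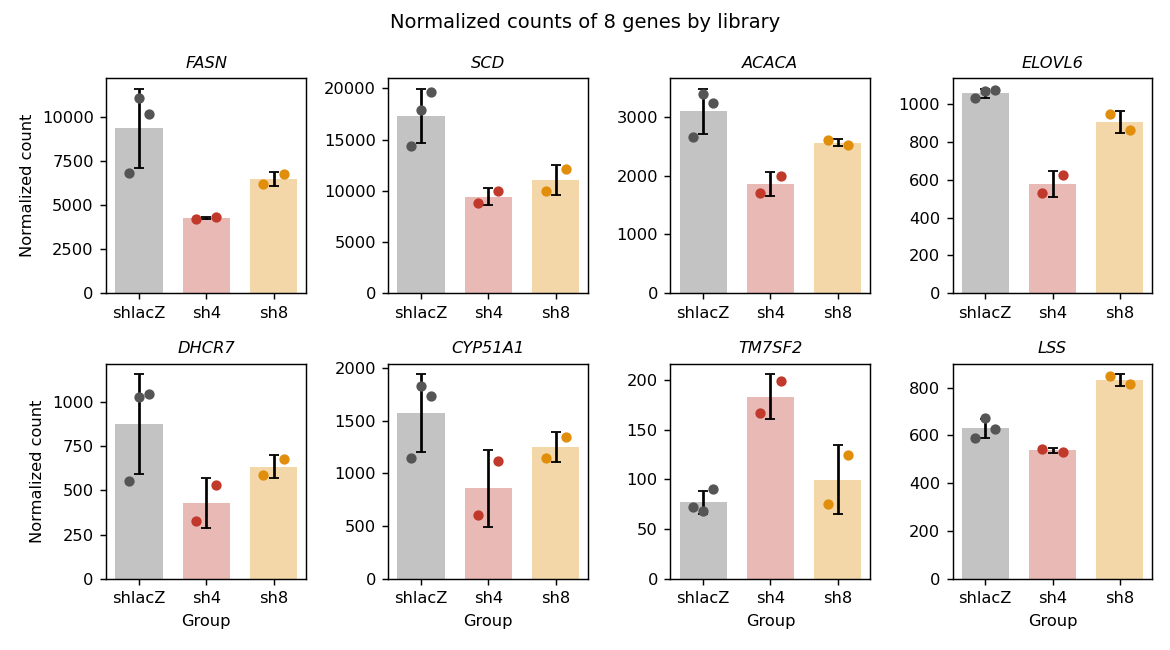
Normalized counts of 8 genes by group, with a point for each library, a bar for the group mean from 0 and an error bar for the SD (3 shlacZ, 2 sh4 and 2 sh8 libraries). FASN, SCD, ACACA and ELOVL6 are below all controls in all 4 knockdown libraries, TM7SF2 is higher under sh4, and LSS is lower under sh4 than under sh8.

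The other 3 fatty acid genes passed no test. ACLY, which makes cytosolic acetyl-CoA from citrate, stood at 3568 to 5032 in the controls, 3170.1 and 4022 under sh4, and 3983 and 4494 under sh8. FADS1, a desaturase of polyunsaturated fatty acids, had 2711, 2296 and 2527 in the controls, 2107 and 2338 under sh4, and 2366 and 2689 under sh8, with log2 fold changes of -0.17 under sh4 (SE 0.12, adjusted p = 0.344) and 0.01 under sh8 (SE 0.12, adjusted p = 0.978). FADS2, its partner in that route, had 107, 159 and 157 in the controls, 119.7 and 194 under sh4, and 93.6 and 127 under sh8. Its log2 fold change was 0.13 under sh4 (SE 0.28, adjusted p = 0.775) and -0.35 under sh8 (SE 0.28, adjusted p = 0.546). These 3 overlapped the controls under both hairpins. The genes that fell under sh4 carry acetyl-CoA to palmitate and on to oleate, and the polyunsaturated branch was not called.

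The mevalonate steps turn acetyl-CoA into isoprenoid units. Of their 7 genes, 2 fell under sh4 (MVD and IDI1), 1 rose (PMVK) and the other 4 did not pass. With 11.9% of all genes lower and 10.5% higher, about 1 gene in each direction would match the background, and the number that rose does. MVD (chr16:88651935-88663161, minus strand), the decarboxylase that yields isopentenyl diphosphate, had 111, 196 and 196 normalized counts in the controls, 75.7 and 87.3 under sh4, and 136 and 133 under sh8. Its log2 level under sh4 fell by 0.99 (SE 0.27, adjusted p = 0.0254). IDI1 (chr10:1039152-1049119, minus strand), the isomerase of the next step, had 1030.0, 1518 and 1528 in the controls, 731 and 1011 under sh4, and 1115 and 1077 under sh8, and fell under sh4 by 0.64 (SE 0.20, adjusted p = 0.0438). For both genes sh8 lay within the controls, between the first library and the other two.

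PMVK (chr1:154924740-154936719, minus strand), the kinase just before MVD, went the other way. It had 119, 142 and 163 in the controls, 199.9 and 252 under sh4, and 123 and 149 under sh8, and rose under sh4 by 0.68 (SE 0.21, adjusted p = 0.0467). MVK, the kinase before it, was centred near its controls, with 119, 157 and 145 in shlacZ, 111 and 181 under sh4, and 186 and 139 under sh8. The log2 fold change of MVK was 0.02 for sh4 (SE 0.26, adjusted p = 0.965) and 0.21 for sh8 (SE 0.26, adjusted p = 0.711). FDPS, which makes farnesyl diphosphate, had 865, 1355 and 1498 in the controls, 691 and 1067 under sh4, and 742 and 960.1 under sh8. Its log2 fold change was -0.49 under sh4 (SE 0.25, adjusted p = 0.196) and -0.51 under sh8 (SE 0.25, adjusted p = 0.317), the lowest sh8 value of the group. ACAT2, which joins acetyl-CoA units, and HMGCS1, which makes HMG-CoA, had control means of 1040.0 ± 350.3 (SD, n = 3) and 1587 ± 524, and sh4 means of 724 ± 246 (n = 2) and 1059.7 ± 369.5. Their controls spread widely, and the 95% interval of HMGCS1 under sh4 ran from -1.21 to 0.08 on the log2 scale.

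From squalene to cholesterol, 2 of 11 genes fell under sh4 (CYP51A1 and DHCR7), 1 rose (TM7SF2) and the other 8 did not pass, again counts close to the 11.9% lower and 10.5% higher of all genes. CYP51A1 (chr7:92084987-92134803, minus strand), the lanosterol 14-alpha-demethylase, had 1151, 1829 and 1739 in the controls, 602 and 1114 under sh4, and 1148 and 1349.7 under sh8. It fell under sh4 by 0.91 (SE 0.26, adjusted p = 0.0332), although sh4 2 lay only just below the lowest control. DHCR7 (chr11:71428193-71452868, minus strand), which reduces 7-dehydrocholesterol in the last step of the Kandutsch-Russell route, had 550.1, 1029 and 1046 in the controls, 329 and 529 under sh4, and 589 and 679 under sh8. It fell under sh4 by 1.01 (SE 0.29, adjusted p = 0.0314), and here too sh4 2 was close to shlacZ 1.

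TM7SF2 (chr11:65111845-65116384, plus strand), a sterol C14-reductase, had the highest fold change of the 30 genes under sh4. It had 72.2, 68.1 and 90.5 in the controls, 167 and 199 under sh4, and 75.1 and 125 under sh8. Its log2 level under sh4 rose by 1.25 (SE 0.26, adjusted p = 0.00876), a fold of 2.37. Under sh8 the 2 libraries were apart, and the value was 0.34 (SE 0.26, adjusted p = 0.537). Its annotated span overlaps VPS51 on the same strand, so reads of the shared part could have been given to either gene.

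SQLE, the epoxidase that commits squalene to sterols, had 698, 1252 and 1346 in the controls, 473 and 850.1 under sh4, and 674 and 767 under sh8. Its log2 fold change was -0.73 under sh4 (SE 0.30, adjusted p = 0.107) and -0.55 under sh8 (SE 0.30, adjusted p = 0.365), with libraries that overlap. LSS, which closes the ring to lanosterol, passed only between the hairpins, and its values are given with that comparison. FDFT1 (squalene synthase), MSMO1, NSDHL and HSD17B7 (removal of the C4 methyl groups), EBP (sterol isomerase) and SC5D (sterol desaturase) had log2 fold changes under sh4 between -0.62 for MSMO1 and 0.04 for NSDHL. HSD17B7 has a near-identical pseudogene copy and FDPS has several pseudogenes, which makes their counts less certain. Pseudogenes of the other members were not examined. Besides TM7SF2, the annotated spans of CYP51A1, ACACA, EBP and SREBF1 each overlap 2 genes on the same strand, and those of FADS1, FADS2 and SREBF2 overlap 1 each.

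Over the 18 sterol enzymes together, 4 fell and 2 rose under sh4, and 0 passed in the pooled comparison. Their median log2 fold change was -0.33 pooled, -0.42 under sh4 and -0.23 under sh8. Single libraries moved these medians: the pooled one was -0.55 without shlacZ 1, that of sh4 was -0.16 without sh4 1 and -0.70 without sh4 2, and that of sh8 was -0.46 without shlacZ 1, -0.09 without shlacZ 2 and -0.12 without shlacZ 3. Counting all 30 genes, 8 fell and 2 rose under sh4, beside 11.9% lower and 10.5% higher of all genes tested. With the threshold of the study, an absolute log2 fold change over 1 as well, 3 remained, DHCR7 and FASN lower and TM7SF2 higher (3.37% lower and 4.79% higher of all genes). Both sh4 libraries lay below all 3 controls for 10 of the 30 genes (25.6% of all genes).

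**Figure D3:**
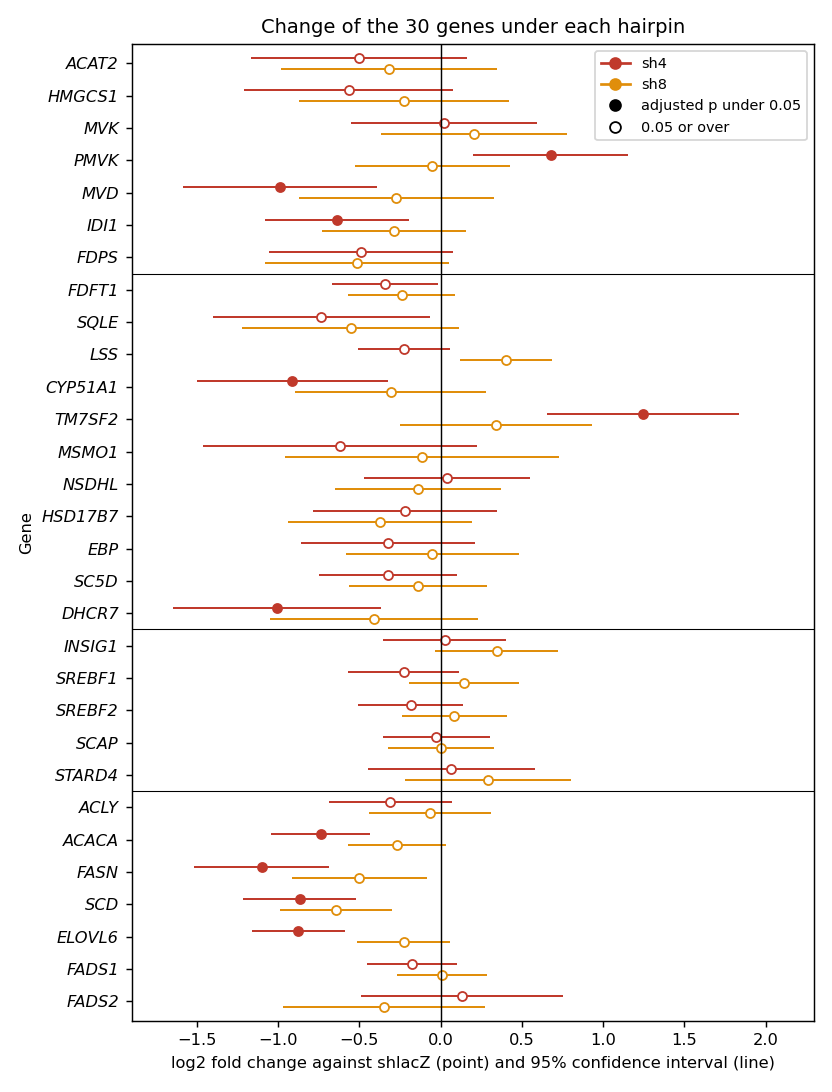
Log2 fold change of the 30 genes under sh4 (red) and sh8 (orange) against the shared shlacZ libraries, with 95% confidence intervals from limma and filled points where the adjusted p was under 0.05. The 10 filled points are all sh4, 8 to the left of 0 and PMVK and TM7SF2 to the right.

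Under sh8, 0 of the 30 genes passed (1.54% of all genes were lower and 1.38% higher). Limma-voom on the recovered reads also called 0, and 3 members had an unadjusted p under 0.05 (FASN and SCD lower, LSS higher), as did 18.5% of all genes. Both sh8 libraries lay below all controls for 4 genes, ACACA, FASN, SCD and ELOVL6 (17.9% of all genes). They lay above all controls for another 4, LSS, INSIG1, SREBF1 and STARD4 (2549 of the 15420 tested genes). The lack of calls does not show that the genes were as in the controls: the 95% interval of SCD ran from -0.99 to -0.30, and that of FASN from -0.92 to -0.09.

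None of the 5 regulators and transport genes passed in any of the 4 comparisons, and their median log2 fold change was -0.03 under sh4 and 0.14 under sh8. SREBF2 was the most abundant of them, with 3051, 3624 and 3674 normalized counts in the controls, 2700.3 and 3392 under sh4, and 3344 and 3976 under sh8. Its sh4 value on the log2 scale was -0.18 (SE 0.15, adjusted p = 0.401). SREBF1 had 627, 699 and 742 in the controls, 674 and 512 under sh4, and 754 and 766 under sh8 (-0.23, SE 0.15, adjusted p = 0.319 under sh4). For both transcripts the sh4 libraries overlapped the controls. Both sh8 libraries lay above all controls for SREBF1 (0.14, SE 0.15, adjusted p = 0.659) and overlapped them for SREBF2. The measurement concerns transcript and not the cleaved, active protein.

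INSIG1, itself a target of SREBP, had 520.2, 702 and 699 in the controls, 603 and 692 under sh4, and 739 and 880.0 under sh8. Its log2 fold change was 0.03 under sh4 (SE 0.17, adjusted p = 0.933) and 0.35 under sh8 (SE 0.17, adjusted p = 0.314). SCAP, the SREBP escort, had 721, 829 and 865 in the controls, 751 and 827 under sh4, and 719.7 and 900.1 under sh8 (0.0042, SE 0.15, adjusted p = 0.991 under sh8). STARD4, a carrier of cholesterol between membranes, had 462, 448 and 575 in the controls, 383 and 694 under sh4, and 585 and 621 under sh8 (0.07, SE 0.23, adjusted p = 0.87 under sh4). The sh4 libraries of STARD4 differed more from each other than the groups did.

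The hairpins were also compared with each other. Of the 30 genes, 2 were lower under sh4 than under sh8, LSS and ELOVL6, and 0 were higher (3.33% lower and 3.67% higher of all genes). LSS (chr21:46188141-46228824, minus strand) had 588, 671 and 628 in the controls, 545 and 529 under sh4, and 849 and 814 under sh8. It lay below the controls with sh4 and above them with sh8, but neither difference passed (log2 fold change -0.23, SE 0.13, adjusted p = 0.233, and 0.40, SE 0.13, adjusted p = 0.125). The difference between the hairpins was -0.63 (SE 0.14, adjusted p = 0.0252). For ELOVL6 it was -0.65 (SE 0.14, adjusted p = 0.023). LSS lost the call in 6 of 18 alternatives (adjusted p up to 0.163) and ELOVL6 in 5 (up to 0.169), for both with no variance trend and without any single sh4 or sh8 library, and for LSS also without shlacZ 3. For SCD the difference was -0.22 with an interval from -0.60 to 0.16, for FASN -0.60 (SE 0.20, adjusted p = 0.111) and for TM7SF2 0.91 (SE 0.29, adjusted p = 0.0924).

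The sterol enzymes shared a further feature, a large spread between libraries of the same group. The first shlacZ library was the lowest of the 3 for 17 of the 18 sterol enzymes, TM7SF2 being the exception, and for 6906 of the 15420 tested genes. That library was also the lowest for 6 of the 7 fatty acid genes and 4 of the 5 regulators and transport genes. It was lowest and at least 0.5 below the mean of the other two on the log2 scale for 11 of the 18 (10.2% of all genes). The median difference was -0.57, against -0.03 over all genes and 0.02 between shlacZ 2 and 3 for the same enzymes. In sh4 the first library was likewise at least 0.5 below the second for 9 of the 18 (5.81% of all genes), and in sh8 for 2 (9.05%). Across the 18 enzymes the differences within shlacZ and within sh4 had a correlation of 0.72, and of 0.34 across all tested genes. The correlation was 0.90 for the 11 genes from squalene to cholesterol but 0.24 for the 7 genes of the mevalonate steps. These points share the depth and size factor of each library, and genes are not independent replicates.

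MSMO1 shows the pattern at its strongest, with 277, 510.1 and 605 in the controls and 187 and 438 under sh4. The second sh4 library was thus well above the first control. Fatty acid genes spread less than the sterol enzymes, but their first shlacZ library was low too, with a median difference of -0.38 (-0.03 over all genes). It was 0.5 or more below the others for 2 of 7 (10.2% of all genes). The first sh4 library was as far below the second for 1 of 7 (5.81% of all genes). ELOVL6 varied by a SD of 23.4 around 1058 in the controls.

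**Figure D4:**
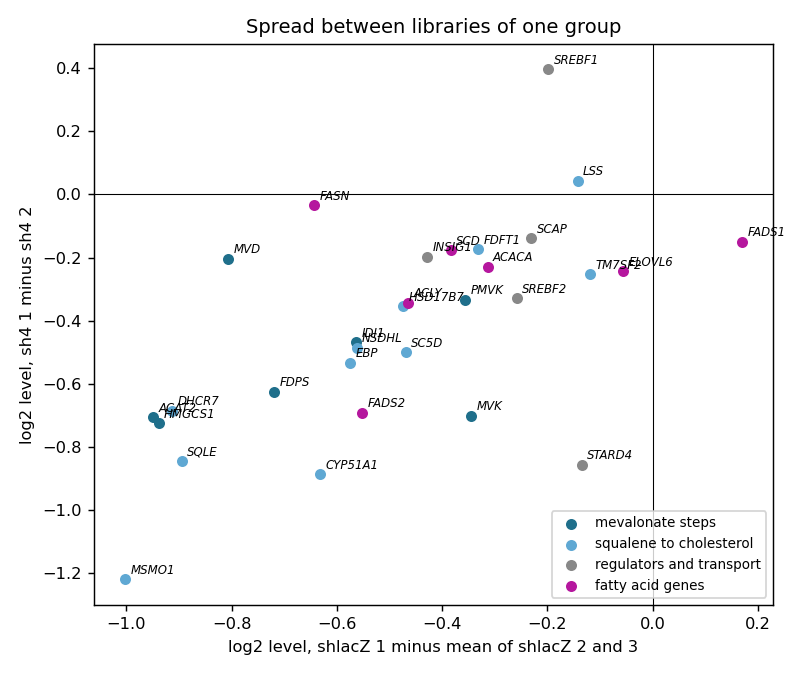
Differences between libraries of the same group for the 30 genes, on the log2 scale, with shlacZ 1 minus the mean of shlacZ 2 and 3 on the horizontal axis and sh4 1 minus sh4 2 on the vertical axis, coloured by role. Most sterol enzymes are at the lower left, low in both first libraries, with MSMO1 lowest and LSS near the upper right.

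The arms can be set side by side as the mean log2 level of their genes in each library relative to the control mean. The sterol enzymes stood at -0.40, 0.19 and 0.21 in shlacZ, -0.60 and -0.06 under sh4, and -0.25 and -0.09 under sh8. The fatty acid genes stood at -0.21, 0.11 and 0.11, at -0.69 and -0.43, and at -0.36 and -0.22. Every knockdown library was below every control for the fatty acid arm, though sh8 2 (-0.22) only just below shlacZ 1 (-0.21), and the sterol arm overlapped. The sterol mean minus the fatty acid mean was -0.19, 0.08 and 0.10 in shlacZ, 0.10 and 0.37 under sh4, and 0.11 and 0.13 under sh8. Library by library, sh4 1 against shlacZ 1 gave a median of -0.24 for sterol enzymes and -0.64 for fatty acid genes, and sh4 2 against shlacZ 2 gave -0.34 and -0.76. For sh8 1 against shlacZ 1 the medians were 0.14 and -0.13. With sh8 2 against shlacZ 2 they were -0.43 and -0.33, so in that pair the sterol median was the lower. The labels do not say whether the numbers pair the libraries, and these are descriptions without a test.

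**Figure D5:**
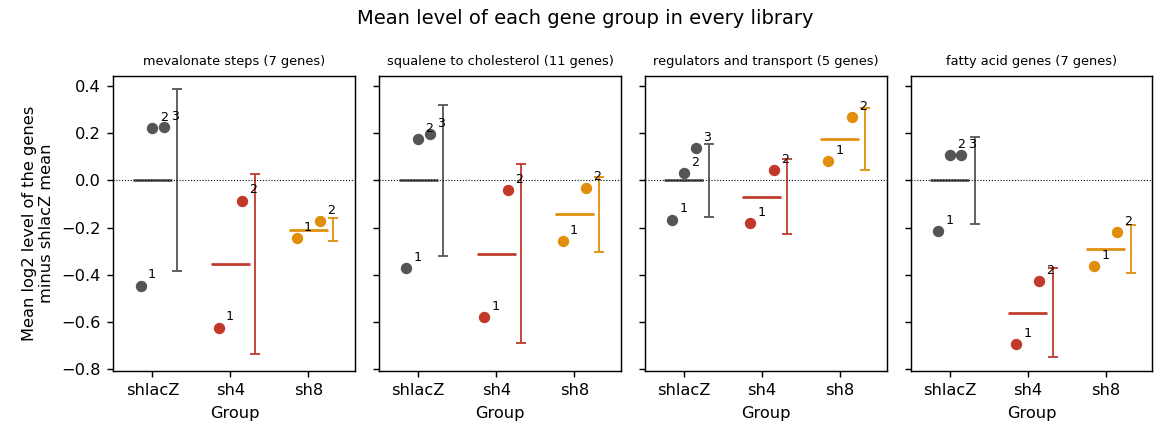
Mean log2 level of the genes of each role relative to the mean of the shlacZ libraries, with a numbered point for each library, a line for the group mean and an error bar for the SD. The fatty acid genes of the 4 knockdown libraries lie between -0.69 and -0.22, below every control (sh8 2 only just), whereas the sterol groups overlap.

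Leaving out the first shlacZ library raised the counts. Under sh4, 17 of the 30 genes then passed, 16 lower and 1 higher (31.5% of all genes in either direction), of which 11 lower were sterol enzymes. Under sh8, 5 passed, all lower (10.4%), and in the pooled comparison 2 (4.52%). When the first sh4 library was left out as well, which was chosen after seeing the data, 12 passed under sh4 (20.1% of all genes), 10 under sh8 (12%) and 0 in the pooled comparison (0.409%). In contrast, leaving out shlacZ 2 or shlacZ 3 left 5 under sh4, namely 4 fatty acid genes and TM7SF2. Of all genes, 14.6% and 14.9% passed then, close to the share of the 30. FASN, SCD and ELOVL6 passed under sh4 in all 18 alternatives run, ACACA in 17 (adjusted p = 0.0535 without sh4 1) and TM7SF2 in 17 (adjusted p = 0.0898 without sh4 2). Of the sterol enzymes that had passed, DHCR7 lost the call in 4 of the 18, MVD and CYP51A1 in 5, IDI1 in 8 and PMVK in 12.

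Other genes of these routes were taken from lists chosen with earlier results known. Of the 8 SREBP processing genes, 1 rose and 1 fell under sh4, MBTPS1 (site-1 protease, 0.61, SE 0.13, adjusted p = 0.00763) and MBTPS2 (site-2 protease, -0.51, SE 0.12, adjusted p = 0.0155). These counts are close to the 10.5% higher and 11.9% lower of all genes. Both passed in the pooled comparison in the same directions (2.55% of all genes were higher and 2.06% lower there). Of the 8, 1 fell under sh8, ERLIN2 (-0.75, SE 0.14, adjusted p = 0.0239, with 1.54% of all genes lower). Of the 12 tested sterol uptake, transfer, storage and efflux genes, 2 fell and 2 rose under sh4, beside the same 11.9% and 10.5% of all genes. Those that fell were CYP27A1 (sterol 27-hydroxylase, -0.77, SE 0.17, adjusted p = 0.0112) and SCARB1 (the HDL receptor, -0.70, SE 0.12, adjusted p = 0.0029), and those that rose were NR1H2 (the sterol receptor LXR-beta, 0.58, SE 0.16, adjusted p = 0.0304) and OSBP (an oxysterol-binding protein, 0.45, SE 0.13, adjusted p = 0.0354). CYP27A1 fell under sh8 too (-0.88, SE 0.17, adjusted p = 0.0262). In the isoprenoid branch that leaves the pathway at farnesyl diphosphate, 1 of 11 genes fell under sh4, near the 11.9% of all genes. It was RABGGTB (a geranylgeranyl transferase subunit, -1.17, SE 0.15).

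Around the fatty acid genes, 3 of 17 supply, activation and elongation genes rose and 3 fell under sh4 (10.5% and 11.9% of all genes). Those that rose included ACSS2 (0.91, SE 0.25, adjusted p = 0.0254) and ACACB (0.82, SE 0.19, adjusted p = 0.0139). Those that fell included MID1IP1 (-0.90, SE 0.17, adjusted p = 0.00469) and SCD5 (-0.74, SE 0.16, adjusted p = 0.0103). Under sh8, 1 of the 17 passed, ACSL1, another acyl-CoA synthetase, which was lower (-0.64, SE 0.15, adjusted p = 0.0497, with 1.54% of all genes lower). ACSL3, an acyl-CoA synthetase, fell from 8873, 9229 and 9787 normalized counts in the controls to 3761 and 3932 under sh4 (-1.27, SE 0.11, adjusted p = 0.00011). ACSL4, the form that prefers arachidonate, rose from 548, 519.5 and 603 to 1432 and 2067 (1.63, SE 0.17, adjusted p = 0.000287). The related synthetases thus moved in opposite directions. GPAM, which puts the first acyl chain on glycerol 3-phosphate, had 2533, 2602 and 2591 in the controls, 1399 and 1476 under sh4, and 1392 and 1438 under sh8. It was lower with each hairpin, by 0.84 (SE 0.11, adjusted p = 0.000682) and 0.86 (SE 0.11, adjusted p = 0.00328), and 0 of the other 7 glycerolipid genes passed in any comparison. Of 12 fatty acid oxidation genes, ACADVL rose (1.17, SE 0.17, adjusted p = 0.00136) and HADH fell under sh4, close to the 10.5% and 11.9% of all genes.

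Other programmes moved with the same libraries. Under sh4, 6 of 7 melanocytic markers fell, with a median of -1.27, and 3 of 8 cell cycle genes (CDK1, CCNA2 and PCNA) fell, beside 11.9% of all genes. Under sh8, 0 of either list passed, with medians of -0.50 and -0.28 (1.54% of all genes were lower). Their part in the lower fatty acid and sterol genes was not tested.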

How the data were processed

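RNA of 7 libraries of 501Mel cells was analysed. Per the study's methods and the submitters' processing notes, stranded paired-end libraries were made after ribosomal depletion, Cutadapt removed adapters, STAR mapped the reads to hg38 (GRCh38), Salmon gave gene-level abundance, and DESeq2 took the resulting counts. Versions and the annotation release are not given in the sources used here. The authors deposited 1 table of normalized counts, with decimal commas, in which each count is divided by a size factor of its library. Such scaling hides any shift that most genes have in common. Of the deposited values, 100% were integer multiples of what 1 read is worth in that library (tolerance 1e-06), so reads were recovered for depth (13337317 to 22855232 per library) and for limma-voom. Over all tested genes the libraries of a group differed by more than counting alone would give (mean chi-square per gene 9.32 to 31.4). This was not computed for the members by themselves. The fewest reads of a member in a library were 57, for TM7SF2. Columns of other samples numbered 0.

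Values were transformed as log2(normalized count + 1). Genes with a mean of at least 10 (15420) were tested with limma 3.58.1 under R 4.3.3, and eBayes was run with a variance trend. A fold change on this scale understates the change of low genes. The pooled comparison had 2 levels, and the hairpin comparisons came from a fit with 3 groups, with Benjamini-Hochberg adjustment over all tested genes. "Passed", "rose" and "fell" mean an adjusted p under 0.05. The script was tested on simulated data. Coordinates and exon lengths (union of exons) came from GENCODE release 44 on hg38. Promoters came from RefSeq, GRCh38.p14. Figures used matplotlib 3.10.9.

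The members, the other gene lists and the markers were chosen with earlier results of these data known. All 30 members were to be named, and described in full where they passed in any comparison or were the highest or lowest of their group. From each other list the members that passed under sh4 or sh8 against shlacZ were counted, and up to 4 with the largest absolute log2 fold change named. Calls of these lists between the hairpins, such as that of NPC1, are not listed. Of their pooled calls only those of MBTPS1 and MBTPS2 are given. In the supply, activation and elongation list all that passed were named. Alternatives were other pseudocounts (0.5 and 10), minimum means (none and 50) and normalizations, limma-voom, a block for the replicate number, no variance trend, fits of 2 groups only, and leaving out each library.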

Additional observations from a re-analysis of the deposited data

Results flagged for a closer look

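Among the 4 knockdown libraries, HMGCS1 had an outlying value: the gap between sh4 1 (798 normalized counts) and the nearest of the other 3 (1286, 1314 and 1321) was 0.934 of the whole range; Dixon's criterion flags a gap of this size among 4 values. In the same 4 libraries the sterol mean minus the fatty acid mean was 0.37 in sh4 2 and between 0.10 and 0.13 in the others, a gap of 0.874 of the range. Chance alone flags about 1 in 20 such sets, and 37 values were examined.

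LSS and ELOVL6 differed between the hairpins by the test of the difference itself. Sh4 minus sh8 was -0.63 on the log2 scale for LSS and -0.65 for ELOVL6, with both sh4 libraries below both sh8 libraries in each case. Neither call held with no variance trend or without any single sh4 or sh8 library (adjusted p up to 0.163 for LSS and 0.169 for ELOVL6).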

How the results depend on the processing

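Of 544 values for 30 results under the alternatives, 439 kept their direction and side of the threshold (or stayed within the spread), 63 were no longer past it, 42 moved and 0 reversed. Members passing under sh4 (10) numbered 5 with no variance trend and 3 with an absolute log2 fold change over 1, and 4 to 17 without 1 library (17 without shlacZ 1, 4 without sh4 1). Under sh8 (0) they numbered 1 with quantile normalization or the same total per library, 0 to 5 without 1 library (5 without shlacZ 1), and 10 without shlacZ 1 and sh4 1 together, an alternative chosen after seeing the data. In the pooled comparison (1) they numbered 0 with no variance trend, with the fold threshold and without both of those libraries, 0 to 3 without 1 library, and 5 with the mean of both hairpins in the fit with 3 groups. Between sh4 and sh8 (2) they numbered 0 with no variance trend or the fold threshold, 4 without both libraries and 0 to 6 without 1 library. Where this left an arm with 1 library, it was assumed to vary like the others. Of all genes, 16.2% passed under sh4 with no variance trend, close to the share of the members. With the mean of both hairpins it was 16.4%, again close to theirs. Without shlacZ 1 it was 31.5% under sh4, 10.4% under sh8 and 12.8% between the hairpins, where 6 members passed. Under sh8 it was 3.73% with quantile normalization and 3.36% with the same total per library.

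GRASLND (-0.85, adjusted p = 0.0402) was no longer past the threshold with no variance trend (-0.85, adjusted p = 0.0805), without both libraries (-0.86, adjusted p = 0.129) and with 6 of the 7 libraries left out singly (-0.99 to -0.73 over all 7). The sterol median minus the fatty acid median was 0.0043 without both libraries in the pooled comparison (0.17) and 0.018 to 0.25 without 1 library. Under sh4 (0.32) it was 0.16 to 0.46 without 1 library. For sh4 against sh8 (0.06) it was -0.10 with quantile normalization, 0.22 without both libraries, and -0.12 to 0.22 without 1 library. Without 1 library the medians of sh4 against sh8 were -0.54 to 0.086 for the sterol enzymes and -0.42 to -0.14 for the fatty acid genes, both lowest without sh4 2. The causes were not tested.

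With the replicate number as a block, 0 members passed in the pooled comparison (0.272% of all genes) and 1 under sh8 (3.72%). Between the hairpins 4 passed (9.51%), and GRASLND had -0.90 against shlacZ in the pooled comparison (adjusted p = 0.15, limma). Deviations of same-numbered libraries correlated at 0.34 and 0.21 for shlacZ with sh4 and at -0.08 to 0.12 for the other pairs. The labels do not say that the numbers pair the libraries, and they were not taken as a pairing. Tests of edgeR and DESeq2 on whole reads were not run.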
